A study of Mus musculus with 30 samples.

Results

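The comparison described here is the addition of mono-(2-ethylhexyl) phthalate (MEHP) to fetal mouse testes exposed at the same time to all-trans retinoic acid (ATRA). It sets the 4 libraries whose treatment label is MEHP + ATRA against the 5 whose label is ATRA, 9 of the 30 libraries of the series. All cultures were testes of C57BL/6 fetuses, taken on gestational day 14, freed of the mesonephros and kept for 24 h on culture inserts. The ATRA group received 1 µM ATRA, the MEHP + ATRA group 1 µM ATRA with 100 µM MEHP, and every culture of the series contained the DMSO vehicle at the same dilution. The remaining libraries, 15 with vehicle and 6 with 100 µM MEHP alone, entered the fit and are used for the effect of MEHP in the absence of ATRA. Isolated testes in culture lack a pituitary, a liver and a placenta, and MEHP was given as such and not formed from its parent ester. The labels do not say which animals or litters the libraries represent, and p-values here cover the spread from library to library and no more. ATRA replicates 2 and 3 share the first number of their titles, and no MEHP + ATRA library has that number. MEHP + ATRA replicates 3 and 4 also share a first number, and no ATRA library has it. Whether libraries with the same first number are independent was not tested.

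MEHP is the monoester that forms when the plasticizer di-(2-ethylhexyl) phthalate is hydrolysed, and it activates peroxisome proliferator-activated receptors (PPARs), nuclear receptors that switch on genes of fatty acid uptake, storage and oxidation. ATRA, the bioactive acid made from vitamin A, binds retinoic acid receptors, which share the retinoid X receptors as partners with the PPARs, and in fetal germ cells it induces Stra8 and entry into meiosis. In the fetal testis this induction is normally held off by the retinoid-degrading enzyme of Sertoli cells, Cyp26b1, and by the germ cell protein Nanos2.

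Libraries held 18580209 to 26955598 counts with ATRA and 21463109 to 24038103 with MEHP + ATRA. Values below are counts per scaled library size (CPM), given in the order of replicates 1 to 5 (ATRA) or 1 to 4 (MEHP + ATRA), and fold changes are log2 ± SE. Marker genes matched the labelled tissue: summed over each list, Sertoli cell markers stood at 4839 to 5349 CPM with ATRA and 4409.9 to 6122 CPM with MEHP + ATRA, fetal Leydig cell and steroidogenic genes at 3222 to 3709.7 and 3158 to 4360.4 CPM, and mesonephric and kidney markers at 89.00 to 119 and 89.7 to 104 CPM. In this bulk RNA, fewer cells of a type and less RNA per cell cannot be told apart. ATRA replicates 1 and 3 lay at opposite ends of their group for germ cell genes: Dnmt3l was 85.9 CPM in replicate 1 and 7.4 CPM in replicate 3, and Stra8 was 56.5 and 205 CPM. Counts of list members and of interaction genes are therefore also given without these 2 libraries wherever they differ, an alternative chosen after the data were seen.

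Adding MEHP to ATRA raised 313 genes and lowered 266 of 19323 tested, at an adjusted p below 0.05 in the edgeR quasi-likelihood test. These 579 genes are 3% of those tested, with 1.62% higher and 1.38% lower. These 2 shares are the background for each count of called list members below. Rises were more often small: 27 genes rose and 68 fell by at least 2-fold, and the median log2 fold change was 0.41 among the genes that rose and −0.67 among those that fell. All 4 MEHP + ATRA libraries lay above all 5 ATRA libraries for 696 genes (3.6%) and below them for 685 genes (3.54%). The count of called genes was 305 without ATRA replicates 1 and 3, with 294 of them among the 579, and 340 without MEHP + ATRA replicate 1, with 321 among the 579. A block on the first title number over 30 libraries gave 623 called genes, with 395 of them among the 579. The calls given below are those of the fit without this block.

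Cholesterol biosynthesis was the gene list with the largest share of members called. The pathway builds sterols from acetyl-CoA through mevalonate and squalene, and its genes share regulation by the transcription factor SREBP2, which is released when membrane sterol is low. Of 20 enzymes listed, 18 rose and 0 fell (background 1.62% higher), with a median log2 fold change of 0.46 against −0.01 over all genes tested. In 17 of the 20, all 4 MEHP + ATRA libraries lay above all 5 ATRA libraries. Summed over the list, the level was 2236 to 2535 CPM with ATRA and 3091 to 3380.2 CPM with MEHP + ATRA, so the groups did not overlap. Without ATRA replicates 1 and 3 the count was 15 of 20.

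The start-site regions of the 3 cholesterol genes with the smallest p are shown because these genes moved together. They run from 250 bases before to 50 bases after the start of transcription, 5′ to 3′ on the strand of the gene, from RefSeq on build GRCm38.p6. They are chr8:122443373-122443672 (- strand) for Mvd, chr3:89454291-89454590 (+ strand) for Pmvk and chr9:42264251-42264550 (- strand) for Sc5d. Capitals mark every match, on either strand, to a sterol regulatory element-like motif (TCACNCCAC), a CCAAT box (CCAAT), a GC box (GGGCGG) or an E-box (CACGTG), and no overlap between motifs was found in these windows.
Mvd: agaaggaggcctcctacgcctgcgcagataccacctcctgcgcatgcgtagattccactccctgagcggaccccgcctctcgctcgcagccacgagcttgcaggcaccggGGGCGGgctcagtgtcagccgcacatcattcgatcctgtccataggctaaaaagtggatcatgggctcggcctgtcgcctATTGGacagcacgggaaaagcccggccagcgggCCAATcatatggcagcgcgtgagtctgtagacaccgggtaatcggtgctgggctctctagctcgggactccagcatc
Pmvk: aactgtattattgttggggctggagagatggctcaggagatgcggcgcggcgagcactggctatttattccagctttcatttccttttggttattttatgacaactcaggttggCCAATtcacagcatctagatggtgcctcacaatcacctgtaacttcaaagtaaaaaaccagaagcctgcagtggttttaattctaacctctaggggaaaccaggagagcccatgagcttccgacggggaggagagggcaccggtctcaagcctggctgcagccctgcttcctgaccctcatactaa
Sc5d: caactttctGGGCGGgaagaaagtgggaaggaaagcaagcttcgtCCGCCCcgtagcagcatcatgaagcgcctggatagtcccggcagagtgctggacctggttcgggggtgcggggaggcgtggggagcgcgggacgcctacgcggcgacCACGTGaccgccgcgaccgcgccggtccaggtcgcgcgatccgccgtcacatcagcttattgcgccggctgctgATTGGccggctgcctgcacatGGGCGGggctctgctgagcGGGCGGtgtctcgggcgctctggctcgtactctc

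The sequence table held 18 such windows for 15 of the 20 genes. A CCAAT box was found in 14 of the 18 (77.8%) and in 37.4% of all 32851 windows of the table, and a GC box in 15 (83.3%) and in 35.7%. An E-box was found in 3 of the 18 (7.15% of all windows) and the sterol regulatory element-like motif in 1 (1.24% of all windows). A match is a stretch of letters and not a measured binding site, and a window without a match says nothing of binding elsewhere.

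Mvd encodes mevalonate diphosphate decarboxylase (ENSMUSG00000006517, chromosome 8, 122433601 to 122443422). It stood at 89.9, 99.03, 84.1, 96.04 and 92.2 CPM with ATRA and at 169, 164, 179.7 and 175 CPM with MEHP + ATRA. The groups were far apart, and Mvd rose by 0.90 ± 0.09 (adjusted p = 1.74e-07), or 1.86-fold. Pmvk encodes phosphomevalonate kinase, the step before Mvd. It stood at 40.9, 41.8, 40.5, 41.99 and 42.03 CPM with ATRA and 68.3, 63.6, 74.2 and 72.9 CPM with MEHP + ATRA, a rise of 0.75 ± 0.09 (adjusted p = 3.86e-06). Its 5 ATRA values were close to each other and all lay below the lowest value with MEHP. In the later, sterol arm of the pathway, Sc5d, the sterol C5 desaturase gene, went from 58.1 to 62.8 CPM to 88.03 to 103 CPM (0.67 ± 0.09, adjusted p = 3.87e-05). Tm7sf2 and Nsdhl, of the reduction and demethylation of sterol intermediates, rose by 0.75 ± 0.12 and 0.67 ± 0.10, and exons of Tm7sf2 overlap Vps51.

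Hmgcs1, the cytosolic synthase gene of the first committed steps, rose less, by 0.37 ± 0.09 (adjusted p = 0.0127), a call lost without ATRA replicates 1 and 3 (adjusted p = 0.0697). Ebp, the sterol isomerase gene, did not pass (0.34 ± 0.11, adjusted p = 0.116), and its MEHP + ATRA libraries overlapped those with ATRA. The same list had 19 members higher and 0 lower with MEHP alone (background 2.88% higher), with a median of 0.48. The 0 interaction calls in the list mean that no member's response to MEHP was shown to differ with ATRA present.

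**Figure D1:**
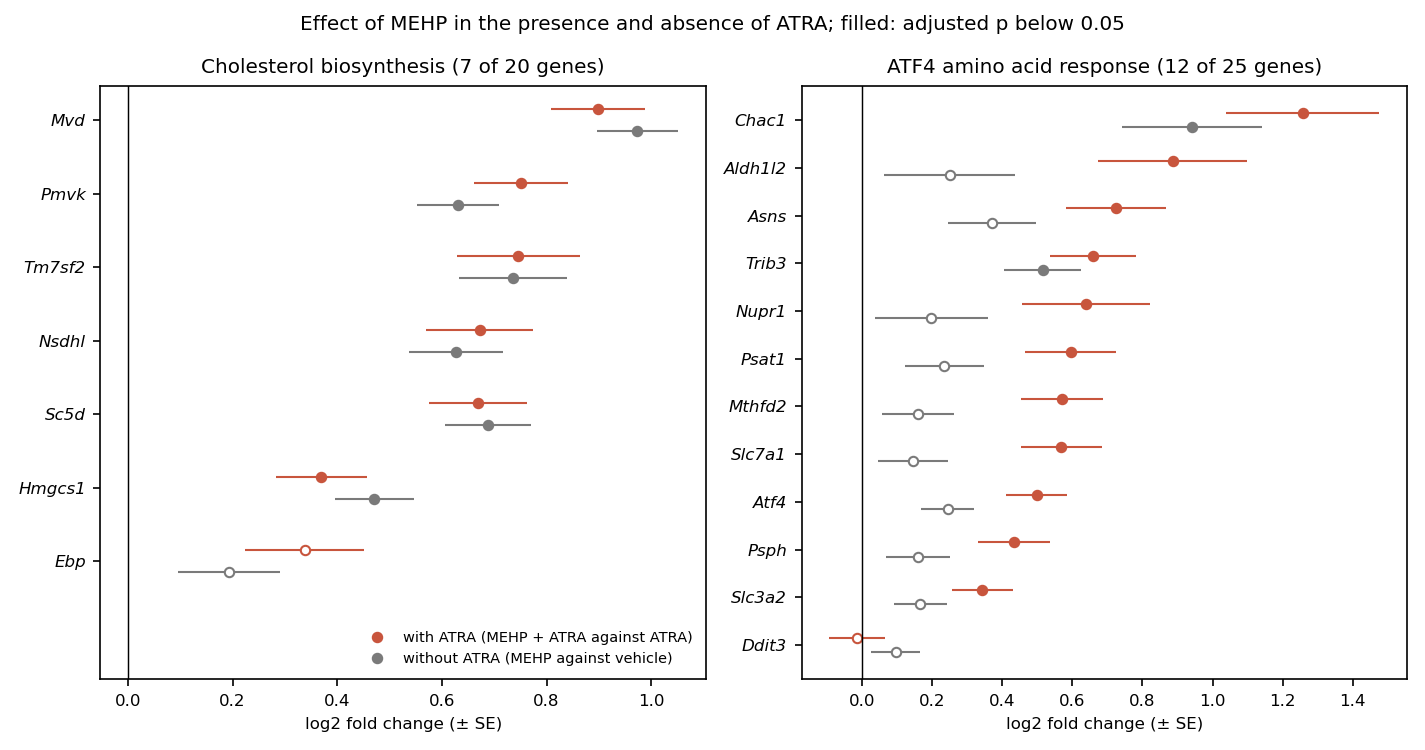
Log2 fold changes (x axis, ± SE) of the 7 genes of the cholesterol list (left) and the 12 of the ATF4 list (right) that the text names, in red for MEHP + ATRA against ATRA and in grey for MEHP against vehicle, filled where the adjusted p was below 0.05. Red and grey points lie side by side for most of these cholesterol genes. On the right 11 red and 2 grey points are filled, but 11 of these 12 genes are shown because they were called with ATRA present. No member of either list had a called interaction.

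Genes of sterol sensing and uptake moved in the same direction where they were called. Of 18 members, 5 rose and 0 fell (background 1.62% higher), with a median of 0.23. Without ATRA replicates 1 and 3, 5 rose as well. The sterol carrier gene Stard4 rose from 61.9 to 68.4 CPM to 87.5 to 104 CPM (0.57 ± 0.09, adjusted p = 0.000192). Insig1, which retains the SREBP escort protein in the endoplasmic reticulum, rose by 0.33 ± 0.08 (adjusted p = 0.0151), a call lost without ATRA replicates 1 and 3 (adjusted p = 0.102). Npc2, of sterol exit from lysosomes, rose by 0.25 ± 0.06.

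Fatty acid oxidation and ketone body genes rose in part. Of 20 enzymes, 6 rose and 0 fell (background 1.62% higher), with a median of 0.18. Without ATRA replicates 1 and 3, 5 rose and 0 fell. Cpt1a, the carnitine transferase gene that controls entry of fatty acids into mitochondria, went from 136, 137, 136, 137 and 148 CPM to 242, 207, 215 and 206 CPM (0.65 ± 0.08, adjusted p = 7.13e-06). The groups did not overlap. Acadl and Ech1, of the oxidation spiral and of unsaturated chains, rose by 0.43 ± 0.07 and 0.40 ± 0.06, and the trifunctional protein genes Hadha and Hadhb by 0.30 ± 0.06 and 0.26 ± 0.07. The dehydrogenase genes Acadvl (0.03 ± 0.05), Acadm (0.10 ± 0.07) and Acads (−0.14 ± 0.11) did not pass, and were looked up after their values were seen, as were Hadha and Hadhb.

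Among 21 tested PPAR targets in lipid handling and peroxisomes, 4 rose and 0 fell (median 0.11, background 1.62% higher). The 3 members Fabp1, Cyp4a10 and Cyp4a14 did not pass the filter on low counts. Angptl4 encodes a secreted inhibitor of lipoprotein lipase (ENSMUSG00000002289, chromosome 17, 33773750 to 33781575) and had the smallest p of all. It stood at 51.6, 42.7, 42.04, 45.4 and 43.3 CPM with ATRA and 104, 82.8, 106 and 93.99 CPM with MEHP + ATRA, a rise of 1.10 ± 0.08 (adjusted p = 7.57e-10). The lowest MEHP + ATRA value lay well above the highest ATRA value. Slc25a34, of the mitochondrial carrier family, rose from 1.05 to 2.0 CPM to 3.68 to 4.32 CPM (1.44 ± 0.18, adjusted p = 9.01e-06). The acyl-CoA thioesterase gene Acot1 rose by 0.58 ± 0.10 and the lipid droplet coat gene Plin2 by 0.27 ± 0.05.

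Of 15 genes of fatty acid elongation and desaturation, 5 rose and 1 fell (median 0.21, background 1.62% higher and 1.38% lower). The counts were also 5 and 1 without ATRA replicates 1 and 3. The gene that fell was Elovl2, the elongase of long polyunsaturated chains, which stood at 13.9, 7.9, 11.8, 10.6 and 8.95 CPM with ATRA and 3.84, 3.4, 4.19 and 4.19 CPM with MEHP + ATRA. It was 2.72-fold lower (−1.44 ± 0.19, adjusted p = 1.45e-05), and no library overlapped. The members that rose included Fads1, the delta-5 desaturase gene (0.41 ± 0.07), Elovl6 (0.39 ± 0.07), Scd2 (0.36 ± 0.08), and Acly, which makes cytosolic acetyl-CoA (0.31 ± 0.06). The other was Elovl3 (0.71 ± 0.16, adjusted p = 0.0113), where an ATRA library overlapped the MEHP + ATRA range.

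**Figure D2:**
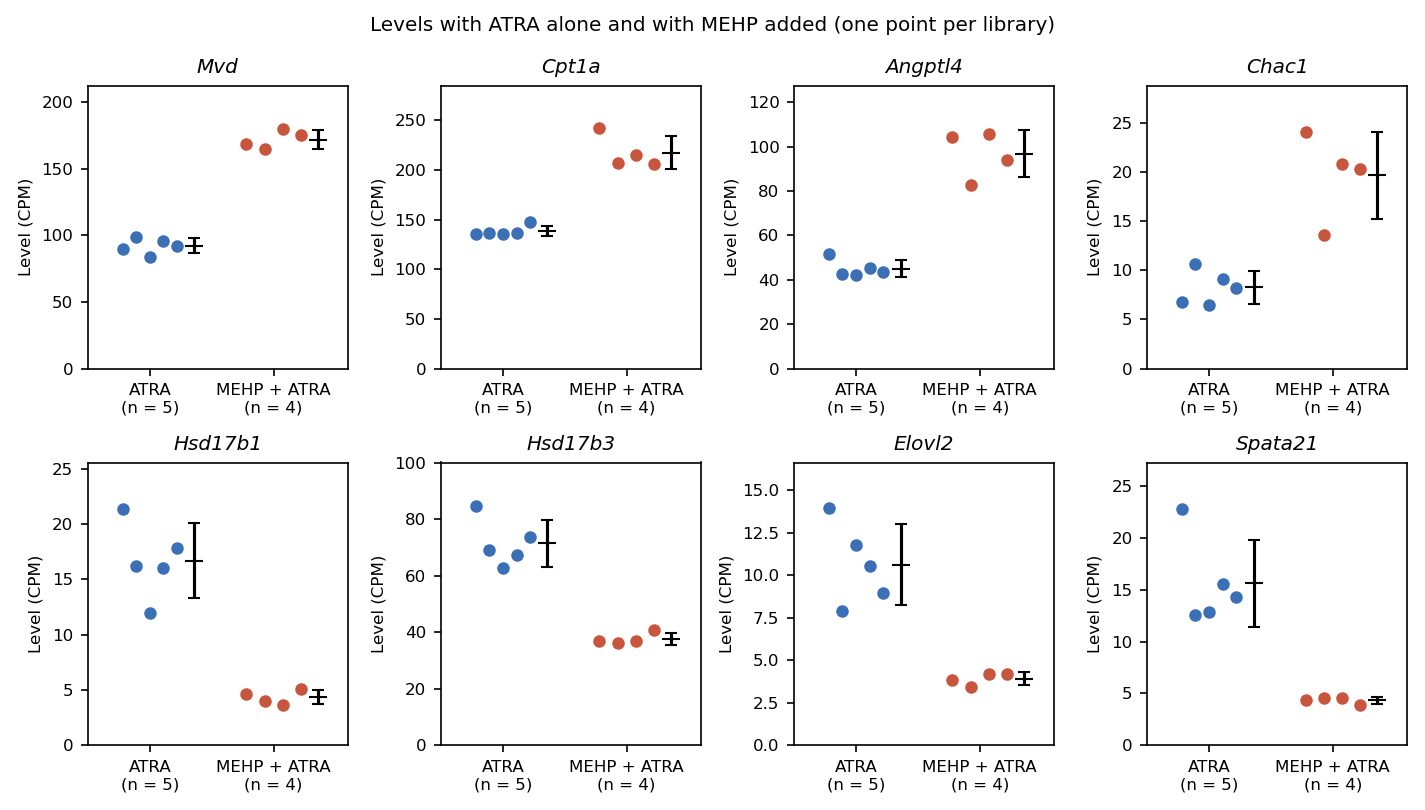
Levels (CPM, y axis from 0) of 8 genes in each ATRA library (blue, n = 5) and each MEHP + ATRA library (red, n = 4), with the mean and SD in black. Mvd, Cpt1a, Angptl4 and Chac1 lie higher and Hsd17b1, Hsd17b3, Elovl2 and Spata21 lower with MEHP, in every case without overlap.

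Targets of ATF4, a transcription factor made when amino acids run short or other stresses phosphorylate eIF2α, rose in part. Of 25 genes, 11 rose and 0 fell (background 1.62% higher), with a median of 0.34, and 23 of the 25 estimates were positive. The count was 7 without ATRA replicates 1 and 3, and 8 without MEHP + ATRA replicate 1. With MEHP alone, 2 members rose (Chac1 and Trib3, background 2.88% higher), with a median of 0.16. The difference between these responses was tested for each gene, and 0 of the 25 passed (adjusted p of at least 0.763).

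The start-site windows of the 3 members of this list with the smallest p are shown with every match to a C/EBP-ATF composite element (TGATGNAA) or a CCAAT box in capitals, on either strand. The windows are cut and credited as above: chr2:119350992-119351291 (+ strand) for Chac1, chr15:80254934-80255233 (+ strand) for Atf4 and chr2:152344011-152344310 (- strand) for Trib3. GC boxes are left in lower case here.
Chac1: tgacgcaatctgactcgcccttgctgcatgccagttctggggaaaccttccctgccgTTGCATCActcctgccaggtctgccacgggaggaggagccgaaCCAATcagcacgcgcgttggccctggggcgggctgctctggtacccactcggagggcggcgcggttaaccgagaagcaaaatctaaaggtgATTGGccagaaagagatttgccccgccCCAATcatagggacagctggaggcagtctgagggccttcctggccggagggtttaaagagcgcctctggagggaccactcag
Atf4: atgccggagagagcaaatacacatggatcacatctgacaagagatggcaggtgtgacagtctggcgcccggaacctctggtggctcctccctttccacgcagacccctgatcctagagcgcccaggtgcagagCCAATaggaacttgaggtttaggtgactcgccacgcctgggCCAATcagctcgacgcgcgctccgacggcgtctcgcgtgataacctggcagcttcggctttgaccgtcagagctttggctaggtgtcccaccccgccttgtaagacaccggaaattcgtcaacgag
Trib3: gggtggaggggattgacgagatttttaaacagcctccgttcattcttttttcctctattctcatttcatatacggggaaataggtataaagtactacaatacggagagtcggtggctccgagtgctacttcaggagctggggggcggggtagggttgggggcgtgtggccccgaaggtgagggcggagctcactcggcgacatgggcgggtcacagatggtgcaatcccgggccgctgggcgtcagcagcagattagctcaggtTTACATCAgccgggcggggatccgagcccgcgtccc

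The C/EBP-ATF element is the sequence that ATF4 and its partners are known to bind, read in these windows on the opposite strand in Chac1, at position −193 from the start, and in Trib3, at position 15. It was found in 8 of 28 windows for 23 of the 25 genes (28.6%) and in 3.97% of all 32851 windows. A CCAAT box was found in 16 of the 28 (57.1%) and in 37.4% of all windows, and a GC box in 17 (60.7%) and in 35.7%.

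Chac1, which encodes a glutathione-degrading cyclotransferase (ENSMUSG00000027313, chromosome 2, 119351229 to 119354381), was 6.81, 10.7, 6.48, 9.08 and 8.22 CPM with ATRA and 24.1, 13.5, 20.8 and 20.3 CPM with MEHP + ATRA. MEHP + ATRA replicate 2 was the lowest of its group and still above every ATRA library, and Chac1 rose by 1.26 ± 0.22 (adjusted p = 0.000596). Atf4 itself was 181, 201, 179, 196 and 176 CPM and 288, 222, 276 and 269 CPM (0.50 ± 0.09, adjusted p = 0.000628). The asparagine synthetase gene Asns was 91.1, 107, 95.1, 105 and 83.3 CPM and 168, 115, 179.9 and 173 CPM (0.72 ± 0.14, adjusted p = 0.00247). In all 3 genes replicate 2 was the lowest of the 4 MEHP + ATRA libraries. Without that replicate, 13 members of the list were called.

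The pseudokinase gene Trib3, which restrains ATF4 signalling, rose by 0.66 ± 0.12 (adjusted p = 0.00117). The remaining called members, named after their values were seen, act in serine and folate metabolism (Psat1 0.60 ± 0.13, Psph 0.44 ± 0.10, Mthfd2 0.57 ± 0.12, Aldh1l2 0.89 ± 0.21), in amino acid transport (Slc7a1 0.57 ± 0.12, Slc3a2 0.34 ± 0.09) or in stress signalling (Nupr1 0.64 ± 0.18, adjusted p = 0.0498). Ddit3, the pro-apoptotic member known as CHOP, had −0.01 ± 0.08 (adjusted p = 0.973), and its exons overlap Mars. Slc7a3, also a cationic amino acid transporter gene, was outside the list and was among the largest rises (1.26 ± 0.27, adjusted p = 0.00543, and 0.0565 without ATRA replicates 1 and 3).

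Other stress lists showed few calls (background 1.62% higher and 1.38% lower). Of 18 endoplasmic reticulum chaperone genes, 1 rose, Herpud1 of protein degradation at that membrane (0.33 ± 0.07, adjusted p = 0.00736), and the list median was 0.10. Of 17 targets of the oxidant sensor NRF2, 0 were called (median 0.11; 1 without ATRA replicates 1 and 3), and Hmox1, the heme oxygenase gene, had 0.24 ± 0.10 (adjusted p = 0.233). Of 20 p53 targets, 0 were called (median 0.03). Among 16 BCL2 family genes, 1 rose: Bik, a BH3-only activator of apoptosis, went from 4.31, 5.58, 6.34, 4.97 and 5.0 CPM to 14.5, 7.68, 9.77 and 10.8 CPM (1.03 ± 0.17, adjusted p = 0.000266), with no overlap. Of 22 hypoxia and glycolysis genes, 0 were called (median 0.09).

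Sertoli cells nurse the germ cells and direct testis formation. Of 30 of their markers, 1 rose and 2 fell (background 1.62% higher and 1.38% lower), with a median of 0.00. Without MEHP + ATRA replicate 1, 1 rose and 4 fell, with a median of −0.10. Summed over the list, that replicate stood at 6122 CPM, above every ATRA library, and the other 3 at 4409.9 to 4779 CPM, below every ATRA library. Hsd17b1, whose enzyme converts estrone to estradiol (ENSMUSG00000019301, chromosome 11, 101078411 to 101080527), was 21.4, 16.2, 11.9, 16.05 and 17.9 CPM with ATRA and 4.62, 4.0, 3.65 and 5.09 CPM with MEHP + ATRA. It was 3.82-fold lower (−1.94 ± 0.21, adjusted p = 8.43e-07), with all MEHP + ATRA libraries at 5.09 CPM or less. Vehicle libraries of the same range of title numbers held 51.5 to 85.8 CPM. Rhox8, a homeobox gene of Sertoli cells, stood at 19.6, 17.2, 16.1, 15.4 and 12.6 CPM and 9.97, 7.54, 7.43 and 7.53 CPM (−1.0 ± 0.18, adjusted p = 0.000826). Fgf9, which encodes a growth factor of testis determination, rose from 4.58 to 6.3 CPM to 7.88 to 11.8 CPM (0.85 ± 0.18, adjusted p = 0.00406).

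The hormone gene Amh was 499, 766, 701, 734 and 654 CPM with ATRA and 641, 417, 399.6 and 435 CPM with MEHP + ATRA, which overlapped through replicate 1 of each group (−0.50 ± 0.17, adjusted p = 0.118). Without MEHP + ATRA replicate 1 it passed, at −0.68 (adjusted p = 0.0361). Sox9, the transcription factor gene of Sertoli fate, had 0.48 ± 0.17 (adjusted p = 0.136), and the Hedgehog ligand gene Dhh 0.13 ± 0.12 (adjusted p = 0.712). Of 10 Hedgehog response genes and of 16 ovarian somatic genes, 0 were called, with medians of −0.03 and −0.03. The granulosa gene Foxl2 had −0.06 ± 0.25 (adjusted p = 0.957).

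Fetal Leydig cells make the androgens of the fetus. Of 19 tested genes of these cells and of steroidogenesis, 2 rose and 2 fell (median 0.05, background 1.62% higher and 1.38% lower). Without ATRA replicates 1 and 3, 1 rose and 1 fell. Hsd17b3 encodes the dehydrogenase that converts androstenedione to testosterone (ENSMUSG00000033122, chromosome 13, 64058274 to 64089201), a step located in fetal Sertoli cells in mouse. It stood at 84.5, 68.9, 62.7, 67.3 and 73.6 CPM with ATRA and 36.7, 36.03, 36.7 and 40.8 CPM with MEHP + ATRA. Every MEHP + ATRA value lay below every ATRA value, and Hsd17b3 was 1.9-fold lower (−0.93 ± 0.09, adjusted p = 1.74e-07). Cyp11b1, the 11β-hydroxylase gene, was 5.66, 2.88, 2.33, 3.49 and 5.21 CPM and 2.59, 1.68, 2.25 and 1.79 CPM (−0.91 ± 0.25, adjusted p = 0.0392). Its groups overlapped, its exons overlap Gml2, and the call was lost without ATRA replicates 1 and 3 (adjusted p = 0.0906) and in 9 other settings.

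Fdx1, the ferredoxin that feeds electrons to the cholesterol side-chain cleavage enzyme, rose by 0.56 ± 0.10 (adjusted p = 0.00118), with replicate 2 of MEHP + ATRA among the ATRA values. The ketoacyl reductase gene Hsd17b12 rose by 0.30 ± 0.08 (adjusted p = 0.0241). This call was lost in 6 of 20 other settings, among them without ATRA replicates 1 and 3 (adjusted p = 0.0621). Star, which carries cholesterol into mitochondria, was 81.1, 76.3, 67.9, 75.3 and 69.00 CPM and 128, 83.1, 102 and 86.99 CPM and did not pass (0.44 ± 0.16, adjusted p = 0.159), although no library overlapped. The side-chain cleavage gene Cyp11a1 had 0.13 ± 0.14 (adjusted p = 0.759), the 17α-hydroxylase gene Cyp17a1 0.29 ± 0.24 (adjusted p = 0.678) and the Leydig peptide hormone gene Insl3 −0.12 ± 0.16 (adjusted p = 0.84). The exons of Cyp11a1 and Insl3 overlap other genes.

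The retinoid response was present in both groups and rose in part when MEHP was added. Of 25 genes of retinoid response and metabolism, 4 rose and 0 fell (median 0.06, background 1.62% higher), with 14 positive and 11 negative estimates. Summed levels were 2572 to 2776 CPM with ATRA and 2783 to 3097 CPM with MEHP + ATRA. Without ATRA replicates 1 and 3, 2 rose and 0 fell, and the count called ran from 1 to 9 over 20 alternatives. Dhrs3, the retinaldehyde reductase gene and a retinoid target (ENSMUSG00000066026, chromosome 4, 144892827 to 144928209), stood at 212, 217, 249.8, 228 and 221 CPM with ATRA and 301, 311, 317 and 317 CPM with MEHP + ATRA. The groups did not overlap (0.46 ± 0.07, adjusted p = 0.000266), and vehicle libraries of the same range held 33.5 to 42.5 CPM. Rdh11, a retinal reductase gene, rose by 0.35 ± 0.09 (adjusted p = 0.0145), a call lost in 5 of 20 other settings, among them without ATRA replicates 1 and 3 (adjusted p = 0.0564) and without MEHP + ATRA replicate 3 or 4. Lrat, of retinol esterification, rose by 0.65 ± 0.18 (adjusted p = 0.0469), a call that was lost in 12 of 20 other settings, among them without ATRA replicates 1 and 3 (adjusted p = 0.072).

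Stra8, the gatekeeper of meiosis (ENSMUSG00000029848, chromosome 6, 34920163 to 34939344), was 56.5, 168, 205, 144 and 135 CPM with ATRA and 226, 243, 206 and 232 CPM with MEHP + ATRA. All 4 MEHP + ATRA values lay above all 5 ATRA values, by a small margin over replicate 3, but the change of 0.68 ± 0.33 did not pass (adjusted p = 0.372). With MEHP alone Stra8 had risen by 2.05 ± 0.42 (adjusted p = 0.0021), from 1.63 to 4.13 CPM to 2.91 to 19.5 CPM. The interaction for this gene was −1.37 ± 0.54 (adjusted p = 0.879). The retinoid hydroxylase gene Cyp26a1 was 5.58, 19.6, 25.7, 17.8 and 17.2 CPM and 20.8, 20.9, 16.8 and 21.1 CPM (0.21 ± 0.28, adjusted p = 0.826), with ATRA replicate 1 far below all other libraries. The receptor gene Rarb went from 30.01 to 43.7 CPM to 46.9 to 56.3 CPM (0.45 ± 0.17, adjusted p = 0.199). Of 24 tested meiotic genes and of 15 anterior Hox genes, 0 were called, with medians of 0.03 and 0.00. The meiotic cohesin gene Rec8 had 0.31 ± 0.23 (adjusted p = 0.639).

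Genes of male germ cell differentiation had the lowest list median, −0.73, with wide spread among the ATRA libraries. Of 11 tested members 1 fell and 0 rose (background 1.38% lower), and 0 were called without ATRA replicates 1 and 3. Tdrd5, of the piRNA pathway that silences transposons, was 53.6, 62.95, 42.5, 49.9 and 47.8 CPM with ATRA and 23.2, 41.6, 33.6 and 24.4 CPM with MEHP + ATRA (−0.74 ± 0.20, adjusted p = 0.0323). The lowest ATRA value lay just above the highest with MEHP. The call was lost in 9 of 20 other settings. Its adjusted p was 0.0751 without ATRA replicates 1 and 3 and 0.175 without MEHP + ATRA replicate 1. Nanos2, the translational repressor of the male germ line, was 0.779, 2.14, 2.44, 1.74 and 1.16 CPM and 0.432, 0.419, 0.405 and 0.326 CPM. It did not overlap between the groups and did not pass (−2.06 ± 0.65, adjusted p = 0.0862). These levels came from 36 reads in the 4 MEHP + ATRA libraries and 191 in the 5 ATRA libraries, and the exons of Nanos2 overlap Gm45058.

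Dnmt3l, a cofactor of de novo DNA methylation chosen for its spread, was 85.9, 39.6, 7.4, 34.4 and 39.7 CPM with ATRA and 13.6, 21.4, 20.4 and 12.4 CPM with MEHP + ATRA (−1.29 ± 0.71, adjusted p = 0.464). The MEHP + ATRA values lay inside the ATRA range, between replicate 3 and the rest. General germ cell markers differed less in this fit, an order that did not hold in every other setting. Of 16 tested germ cell identity genes 1 rose (background 1.62% higher), 12 had negative estimates, and the median was −0.37. The member that rose was the receptor kinase gene Kit (0.29 ± 0.08, adjusted p = 0.0463, and 0.192 without ATRA replicates 1 and 3). Its call was lost in 7 of 20 other settings. Ddx4, an RNA helicase of all germ cells, had −0.11 ± 0.19 (adjusted p = 0.879). Summed over that list, levels were 1060.4 to 1742 CPM with ATRA, 1014 to 1496 CPM with MEHP + ATRA and 848 to 1873 CPM in vehicle libraries of the same range. The part of germ cell number in these values was not tested. Of 13 pluripotency genes 0 were called (median −0.32), with Pou5f1 at −0.25 ± 0.21 (adjusted p = 0.681).

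**Figure D3:**
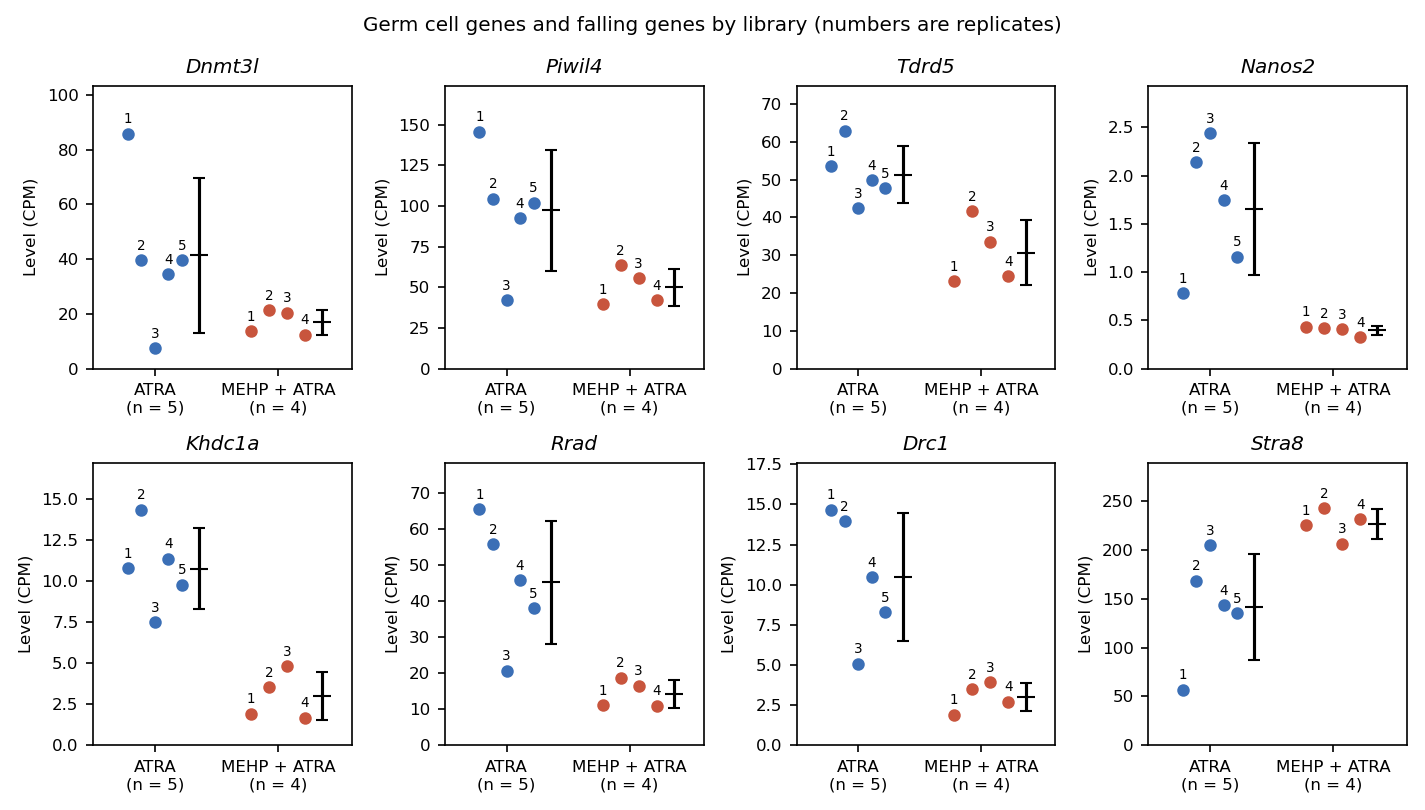
Levels (CPM, y axis from 0) of 8 genes in each library, numbered by replicate, with ATRA in blue (n = 5), MEHP + ATRA in red (n = 4) and the mean and SD in black. ATRA replicate 1 is highest for Dnmt3l, Piwil4, Rrad and Drc1 and the lowest of its group for Nanos2 and Stra8, and ATRA replicate 3 is the lowest of its group for Dnmt3l, Piwil4, Tdrd5, Khdc1a, Rrad and Drc1.

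Cell cycle genes lay slightly higher with MEHP. Of 23 proliferation genes, 22 had positive estimates. In 9 of the 23, all MEHP + ATRA libraries lay above all ATRA libraries (background 3.6%). The list median was 0.19, and 3 rose (background 1.62% higher). They were Mki67 (0.29 ± 0.07, adjusted p = 0.0257), Tpx2 of the spindle (0.29 ± 0.07, adjusted p = 0.0171) and the mitotic cyclin gene Ccnb2 (0.30 ± 0.08, adjusted p = 0.0216). Mki67 was 326, 349, 346, 375 and 369 CPM with ATRA and 462, 394, 439 and 426 CPM with MEHP + ATRA. Summed over the list, levels were 2740 to 3078 CPM with ATRA and 3353 to 3444 CPM with MEHP + ATRA, without overlap. Without ATRA replicates 1 and 3, or without MEHP + ATRA replicate 1, 0 of the 23 passed. Without MEHP + ATRA replicate 2, 6 rose, and the count called ran from 0 to 11 over 20 alternatives. With MEHP alone 0 passed and the median was −0.07. The interaction passed for 0 of the 23.

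**Figure D4:**
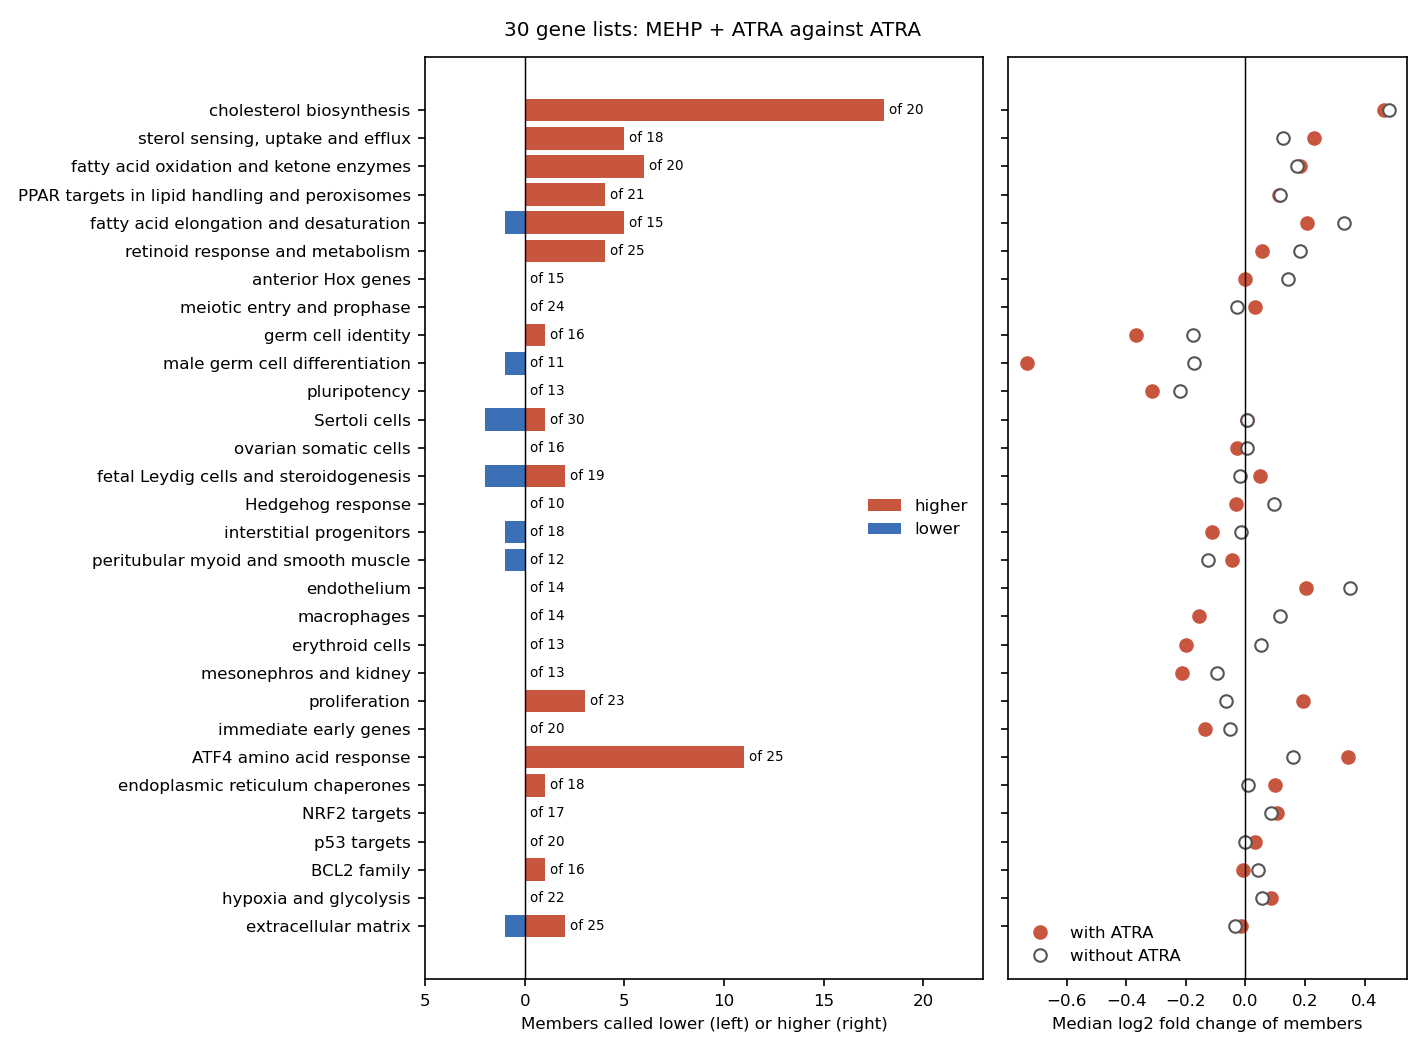
The 30 gene lists in MEHP + ATRA against ATRA. On the left, bars count members called lower (blue, to the left of 0) or higher (red, to the right), with the number tested beside them. On the right, points give the median log2 fold change of each list with ATRA present (filled) and with MEHP alone (open). The bars are longest for cholesterol biosynthesis (18 of 20) and the ATF4 response (11 of 25), and the lowest median is that of male germ cell differentiation.

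The remaining cell type lists gave few calls (background 1.62% higher and 1.38% lower). Of 18 interstitial progenitor genes 1 fell and 0 rose, and the count of members called ran from 0 to 5 over 20 alternatives, with 0 without MEHP + ATRA replicate 1 or 2, and 2 lower without ATRA replicates 1 and 3. Of 12 peritubular myoid and smooth muscle genes 1 fell, the smooth muscle myosin gene Myh11 (−0.44 ± 0.09, adjusted p = 0.00427), while Acta2 had −0.03 ± 0.11 (adjusted p = 0.951). Among 25 extracellular matrix genes, Lama4 (0.45 ± 0.06) and Sparc (0.33 ± 0.06) rose and the basement membrane collagen gene Col4a6 fell (−0.38 ± 0.08), with 2 higher and 2 lower without ATRA replicates 1 and 3. No gene was called among 14 of endothelium (median 0.20), 14 of macrophages (−0.16), 13 erythroid genes (−0.20), 13 of mesonephros and kidney (−0.21) and 20 immediate early genes (−0.14), where Egr1 had −0.11 ± 0.19 (adjusted p = 0.878). Summed erythroid levels ran from 331 to 693 CPM with ATRA and from 202 to 674 CPM with MEHP + ATRA.

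Cox6a2 had the largest rise of the called genes that were not of very low level (mean log2 CPM 1 or more). It encodes a cytochrome c oxidase subunit of striated muscle and was 1.93, 2.14, 1.57, 2.0 and 1.37 CPM with ATRA and 5.78, 3.45, 6.62 and 4.76 CPM with MEHP + ATRA (1.51 ± 0.25, adjusted p = 0.000381), with no overlap between libraries, and its exons overlap Itgad. Slc25a34, Slc7a3, Chac1 and Angptl4, described above, were also among the 12 largest. Atp8b1, a phospholipid flippase gene, rose by 1.28 ± 0.22 (adjusted p = 0.000464), the actin-severing gene Scin by 1.28 ± 0.22 (adjusted p = 0.000596), and the tetraspanin gene Tspan32 by 1.13 ± 0.19 (adjusted p = 0.000324).

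The angiotensinogen gene Agt was 50.6, 40.97, 40.3, 40.4 and 25.7 CPM and 151, 61.1, 93.5 and 64.2 CPM. Replicate 1 stood highest in both groups, and the rise of 1.22 ± 0.28 (adjusted p = 0.0101) was lost without MEHP + ATRA replicate 1 (0.89, adjusted p = 0.113). Myo7b, a brush border myosin gene (1.20 ± 0.29, adjusted p = 0.0154), and Fhod3, an actin-assembling formin gene (1.13 ± 0.24, adjusted p = 0.00485), were among them as well. Without ATRA replicates 1 and 3 their adjusted p were 0.0667 and 0.0705.

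The largest falls were in genes of low level in the 9 libraries compared. Lamp5, Miox and Grm7 had a mean log2 CPM of 1 or more over all 30 libraries, so vehicle or MEHP libraries held more. Lamp5, of the lysosome-associated membrane protein family, was 0.451, 0.524, 0.255, 0.615 and 0.474 CPM with ATRA and 0, 0, 0.045 and 0.122 CPM with MEHP + ATRA, from 51 and 4 reads in all (−3.22 ± 0.54, adjusted p = 0.000401). Miox, the inositol oxygenase gene, rested on 67 and 8 reads (−2.68 ± 0.53, adjusted p = 0.0025) and the glutamate receptor gene Grm7 on 93 and 18 (−2.07 ± 0.40, adjusted p = 0.00174). In each of these 3 genes all MEHP + ATRA libraries lay below all ATRA libraries. Slc13a2, a citrate and dicarboxylate transporter gene, was 2.01, 2.49, 1.38, 2.05 and 2.21 CPM and 0.475, 0.279, 0.27 and 0.57 CPM (−2.31 ± 0.27, adjusted p = 1.79e-06). Its antisense partner Slc13a2os shares its locus, and without a stated strand setting their reads cannot be told apart. The pseudogene Mug-ps1, which has near-identical relatives, had −1.86 ± 0.40 (adjusted p = 0.00516, and 0.0637 without ATRA replicates 1 and 3).

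Spata21, a gene named for its association with spermatogenesis (ENSMUSG00000045004, chromosome 4, 141088333 to 141112760), had the smallest p of the genes that fell furthest. It was 22.8, 12.6, 12.8, 15.6 and 14.3 CPM with ATRA and 4.32, 4.56, 4.5 and 3.87 CPM with MEHP + ATRA, 3.63-fold lower (−1.86 ± 0.16, adjusted p = 1.2e-08). Its MEHP + ATRA values were close to each other and all were under 5 CPM. Khdc1a, a KH-domain gene known from oocytes, was 10.8, 14.4, 7.51, 11.4 and 9.8 CPM and 1.9, 3.54, 4.82 and 1.67 CPM (−1.86 ± 0.46, adjusted p = 0.0194). Rrad, a small GTPase gene, was 65.6, 55.9, 20.7, 45.8 and 38.1 CPM and 11.1, 18.7, 16.5 and 10.9 CPM (−1.66 ± 0.38, adjusted p = 0.00927). Neither gene's groups overlapped, but both calls were lost without MEHP + ATRA replicate 1 (adjusted p = 0.0983 and 0.0516), that of Khdc1a also without ATRA replicate 2 or MEHP + ATRA replicate 4, and ATRA replicate 3 was the lowest of its group in both.

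Drc1, of the dynein regulatory complex of cilia and flagella, had −1.81 ± 0.49 (adjusted p = 0.0335), a call lost in 8 of 20 other settings and at an adjusted p of 0.0731 without ATRA replicates 1 and 3. Arhgef37, a guanine exchange factor gene, had −1.61 ± 0.40 (adjusted p = 0.0185), lost in 6 settings, including without ATRA replicates 1 and 3 (adjusted p = 0.0619). The extracellular matrix gene Frem3 fell by 1.64 ± 0.28 in log2 (adjusted p = 0.000456), from 1.38 to 2.67 CPM to 0.315 to 0.745 CPM.

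The response to MEHP was then set beside that in cultures without ATRA, which share no library with this comparison. All MEHP libraries had a second number in their titles of 500 or more and all ATRA and MEHP + ATRA libraries one below 500, so each was compared within its own range, and a difference between the responses cannot be told apart from a difference between ranges in the response to MEHP. MEHP alone changed 912 genes (4.72%), 556 higher (2.88%) and 356 lower (1.84%), and the count was 439 in a fit of the 12 libraries of the upper range only and 2229 without a term for the range. Of the 579 genes called with ATRA present, 549 had the same sign with MEHP alone. The share with the same sign over all genes tested was not counted. There were 312 called in both with the same sign, 53.9% of the 579 and 34.2% of the 912, and 0 called in both with opposite signs. The shared share was 63.3% for genes that rose with ATRA present and 42.9% for genes that fell.

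The test of the difference itself, the MEHP effect with ATRA minus that without, passed for 6 genes (0.0311%), 2 higher and 4 lower, while 827 genes had an unadjusted p below 0.05. The count was 12 with DESeq2, 10 with limma-voom, 4 without ATRA replicates 1 and 3, and 3 without MEHP + ATRA replicate 2. It was 2 with a block on the first title number over 30 libraries. Asic4, which encodes an acid-sensing channel subunit (ENSMUSG00000033007, chromosome 1, 75450436 to 75474343), was 1.6, 2.05, 2.33, 1.9 and 1.74 CPM with ATRA and 1.77, 1.91, 1.08 and 1.51 CPM with MEHP + ATRA, and overlapped (−0.30 ± 0.24). Without ATRA it fell with MEHP from 8.8 to 16.7 CPM to 1.63 to 3.01 CPM (−2.66 ± 0.19), and the interaction was 2.35 ± 0.30 (adjusted p = 0.000184). The ATRA and MEHP libraries, each without the other agent, overlapped in level. The exons of Asic4 overlap Gm37264.

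Cytip, which encodes a regulator of leukocyte adhesion, rose with MEHP alone (1.69 ± 0.17, from 1.33 to 2.29 CPM to 3.65 to 8.21 CPM). With ATRA present it went from 11.1 to 13.5 CPM to 14.6 to 16.5 CPM and did not pass (0.32 ± 0.17, adjusted p = 0.407; interaction −1.37 ± 0.24, adjusted p = 0.0121). Tdrp, named for testis development, rose by 0.86 ± 0.08 without ATRA and had 0.11 ± 0.09 with it (interaction −0.75 ± 0.12, adjusted p = 0.00566). Plekhd1 fell by 0.86 ± 0.13 in log2 without ATRA and had 0.21 ± 0.15 with it (interaction 1.06 ± 0.19, adjusted p = 0.0245). In these genes the log2 fold change seen without ATRA was smaller in size with it. This compares ratios, and in Cytip the starting level was also higher with ATRA.

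In the other 2 genes the log2 fold change was larger in size with ATRA, again as a ratio. Spata21 fell by 0.64 ± 0.11 in log2 without ATRA and by 1.86 ± 0.16 with it (interaction −1.21 ± 0.20, adjusted p = 0.00566). Vehicle libraries held 42.3 to 53.8 CPM in the range of the ATRA libraries, and MEHP libraries 25.1 to 40.9 CPM. Lamp5 had −0.11 ± 0.21 without ATRA (adjusted p = 0.885) and −3.22 ± 0.54 with it (interaction −3.10 ± 0.59, adjusted p = 0.037), at the few reads given above, and its interaction was lost in 10 of 17 other settings. Without ATRA replicates 1 and 3, the interaction of Plekhd1, Cytip and Tdrp was lost, while that of Lamp5 was kept (adjusted p = 0.0485). The block on the first title number over 30 libraries lost the interaction of Spata21 (adjusted p = 0.0571), Plekhd1, Tdrp and Lamp5.

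**Figure D5:**
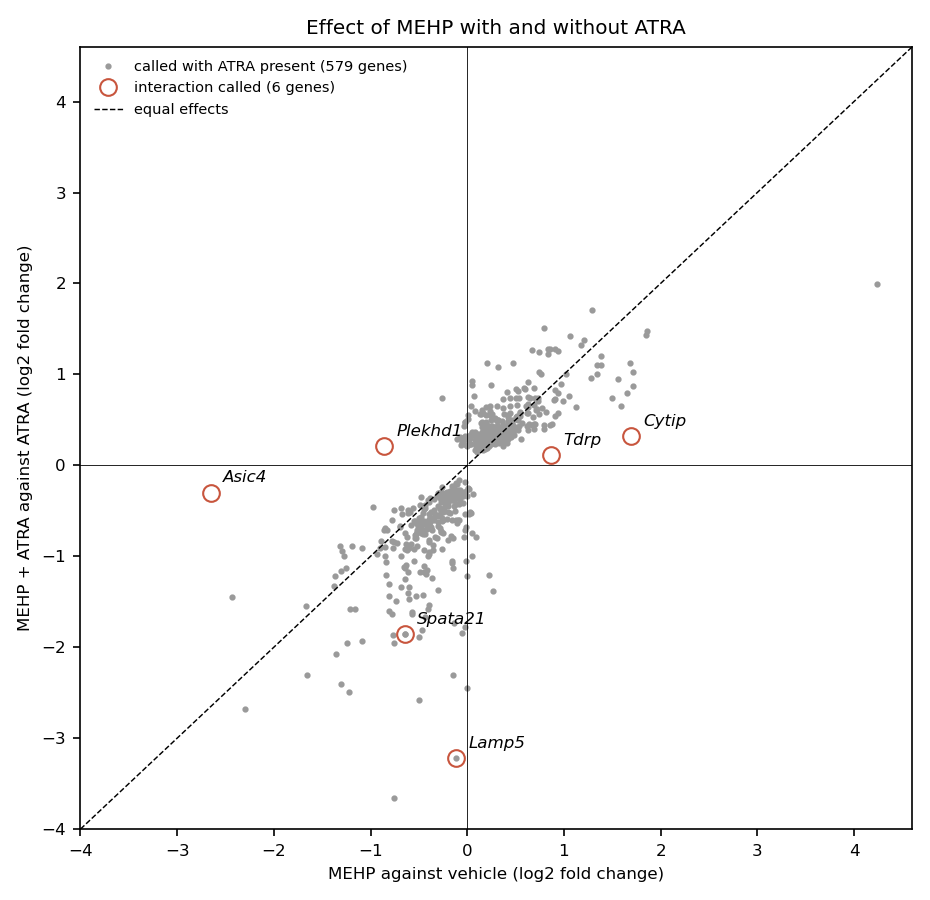
Log2 fold changes with MEHP in the absence of ATRA (x axis, MEHP against vehicle) and in its presence (y axis, MEHP + ATRA against ATRA) for the 579 genes called in the latter (grey) and the 6 genes with a called interaction (red circles, named), with a dashed line of equal effects. Of the 579, 549 lie in the lower left or upper right quadrant, and Asic4, Cytip, Tdrp and Plekhd1 lie near 0 on the y axis only.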

How the data were processed

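Each library has a file of raw gene counts as deposited by the authors, laid out as featureCounts writes it per the file headers. The tools named in the submitters' processing notes are STAR 2.5.2b, Trimmomatic 0.36, featureCounts of Subread 1.5.2, bcl2fastq 2.20 and DESeq2. Genome build, annotation release and strand setting were not given in the sources used here. Of 49315 gene identifiers, 99.3% had a symbol and 99.47% matched GENCODE M21 (GRCm38), and of the matched 91.37% had the same position, so coordinates stand as deposited on that frame. Reads of overlapping genes on opposite strands cannot be told apart, and near-identical copies may share reads.

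The counts were tested in R 4.3.3 with edgeR 4.0.16. Genes passed filterByExpr (minimum count 10), libraries were scaled by TMM (factors 0.975 to 1.023), and a quasi-likelihood fit of all 30 libraries had terms for the group and for the range of the second title number (below 500, or 500 and above), with 25 residual degrees of freedom and a biological coefficient of variation of 12.7%. F tests were two-sided, with Benjamini-Hochberg adjustment over 19323 genes and a threshold of 0.05. Each adjusted p printed is from this edgeR test unless a sentence names another. Standard errors come from the F statistic. The fit was tested on simulated data. No 2 libraries of a group agreed within sampling noise (chi-square per gene 3.99 to 26.9).

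The comparison, its 30 gene lists (525 of 533 genes tested) and the rules were chosen with earlier results of these data known. Named genes were the 12 largest rises and 12 largest falls at a mean log2 CPM of 1 or more, clone names left out, up to 6 interaction genes in each direction, up to 4 called members with the smallest p per list, and a fixed panel. Some genes that these rules name are not reported here. Lists are described by counts and medians, without a test. Alternatives were DESeq2, RLE scaling, limma-voom, other filters, other library sets, a block on the first title number and each library left out in turn. The fit without ATRA replicates 1 and 3 was added after seeing the data.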

Additional observations from a re-analysis of the deposited data

Results flagged for a closer look

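In 10 of 182 groups of 4 or 5 libraries examined, over the named genes, 1 library stood far from the rest, and chance alone flags about 1 group in 20. Among ATRA libraries these were Tspan32 in replicate 3, at 10.6 CPM (others 8.59 to 9.02), Cpt1a in replicate 5, at 148 CPM (others 136 to 137), Elovl6 in replicate 2, at 174 CPM (others 157 to 159.8), and Egr1 in replicate 1, at 34.2 CPM (others 18.7 to 23.02). Among MEHP + ATRA libraries they were Rhox8 in replicate 1, at 9.97 CPM (others 7.43 to 7.54), Amh in replicate 1, at 641 CPM (others 399.6 to 435), Slc25a34 in replicate 2, at 3.68 CPM (others 4.24 to 4.32), Plekhd1 in replicate 2, at 7.73 CPM (others 5.36 to 5.42), Cyp26a1 in replicate 3, at 16.8 CPM (others 20.8 to 21.1), and Hsd17b3 in replicate 4, at 40.8 CPM (others 36.03 to 36.7).

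The response to MEHP differed between cultures with and without ATRA, by the edgeR test of the difference, in Asic4 (2.35 in log2), Plekhd1 (1.06), Tdrp (−0.75), Spata21 (−1.21), Cytip (−1.37) and Lamp5 (−3.10). These are 6 of 19323 genes tested. Of 17 other settings, the call was lost in 10 for Lamp5, 6 for Plekhd1, 2 each for Cytip and Tdrp and 1 for Spata21. MEHP libraries and MEHP + ATRA libraries come from different ranges of title numbers, so a difference of response by ATRA and one by range cannot be told apart.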

How the results depend on the processing

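Over 20 alternatives, the genes taken by the rules in the comparison of MEHP + ATRA with ATRA gave 1682 values on the same side of the threshold and in the same direction, 103 that lost the call, 19 that gained it and 15 of opposite sign, all 15 in genes not called. The 579 genes called became 814 with DESeq2, 1653 with limma-voom, 967 in a fit of the 18 libraries with a second title number below 500, 889 there with a block on the first title number, and 305 without ATRA replicates 1 and 3. Leaving out each ATRA or MEHP + ATRA library in turn gave 340 to 608, with 340 without MEHP + ATRA replicate 1. The 912 genes of MEHP against vehicle became 2229 without the range term and 439 with only the 12 libraries of the upper range. The 6 interaction genes became 12 with DESeq2, 10 without the range term, 10 with limma-voom and 3 to 7 with a library left out, with 3 without MEHP + ATRA replicate 2. The cause of these changes was not tested. Fits with fewer libraries gave counts below or above 579, such as 730 with only the 9 libraries compared. Signs turned in Foxl2 (0.0901 with the block over 30 libraries and 0.0923 over 18; −0.0804 to −0.0132 with a library left out), Ddit3 (0.0048 without a filter; −0.0538 to 0.028 with a library left out), Egr1 (0.0747 without ATRA replicates 1 and 3; −0.216 to 0.0777), Cyp26a1 (−0.0074 to 0.41), Dhh (−0.0082 to 0.21), Insl3 (−0.236 to 0.0441) and Acta2 (−0.0831 to 0.0451). Same-numbered libraries of different groups correlated in their deviations at −0.18 to 0.67 (median 0.13, 19 pairs, 12 of them over 0.1) against −0.55 to 0.38 (median 0.0018, 82 other pairs). The rule for a pairing asked every same-numbered pair to be over 0.1, so the main fit had no term for the first title number. Same-numbered pairs were still over 0.1 more often than other pairs (12 of 19 against 18 of 82). The rule therefore does not show that same-numbered libraries are independent. With a block on the first title number over 30 libraries, 623 genes were called, 395 of them among the 579, and 2 interaction genes. In that fit the list median was −0.53 for germ cell identity and −0.42 for male germ cell differentiation, the reverse of their order in the main fit. With the block over 30 libraries, the adjusted p was above the threshold for Herpud1 (0.0835), Plin2 (0.0711), Rdh11 (0.0821), Arhgef37, Lrat, Tdrd5, Tpx2 and Ccnb2, and for the interaction of Spata21 (0.0571), Plekhd1 (0.0966), Tdrp (0.107) and Lamp5 (0.0653). Depth limits the genes of few reads, such as Lamp5, Miox, Grm7 and Nanos2.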

Other observations

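Of the genes called, 506 belonged to none of the 30 lists. The 12 of these with the smallest p that no other rule named were looked up after the values were seen, and 5 rose and 7 fell. Acss2, which makes acetyl-CoA from acetate, stood at 43.9 to 46.1 CPM with ATRA and 64.7 to 81.1 CPM with MEHP + ATRA (0.72 ± 0.08, adjusted p = 8.43e-07, edgeR), and Gpt2, the mitochondrial alanine transaminase gene, at 67.6 to 82.4 CPM with ATRA and 106 to 129 CPM with MEHP + ATRA (0.63 ± 0.09, adjusted p = 2.47e-05). The syntrophin gene Sntb1 rose by 1.03 ± 0.11, the matricellular gene Tinagl1 by 0.96 ± 0.11 and Mybpc3, known from the cardiac sarcomere, by 0.74 ± 0.09. Ass1, the argininosuccinate synthase gene of arginine synthesis, stood at 13.4 to 13.6 CPM with ATRA and 6.23 to 7.85 CPM with MEHP + ATRA and fell (−0.92 ± 0.12, adjusted p = 9.01e-06). Socs2, a brake on growth hormone and cytokine signalling, had −0.80 ± 0.11, the transporter genes Flvcr2 and Slc25a45 −0.93 ± 0.10 and −0.99 ± 0.13, and Kazald1, Syt2 and Rassf4 −0.86 ± 0.11, −1.0 ± 0.13 and −0.95 ± 0.13.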
